A study of Homo sapiens with 12 samples.

Results

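Interferon-stimulated genes are the genes that cells switch on when they sense interferon or foreign nucleic acid, and 52 of them were followed across every treatment of MDA-MB-231 cells, a triple-negative human breast cancer line. The members were taken by gene symbol, together with older names of the same genes, a rule that uses no measured value. The list itself was chosen with earlier results of these data known, so its counts are not those of a blind list. Of the 52 genes, 51 had at least 1 named probe on the array, 76 probes in all. STAT2, a transcription factor of the pathway, had none. Of the 51, 45 genes with 56 probes were detected on both arrays of at least 1 group and were tested, out of 10,773 genes tested on the array. Each gene was read by its brightest tested probe.

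RNA was measured on 12 Illumina HT-12 v4 bead arrays in 6 groups of 2. The cells received DOT1L siRNA-1 at 10 nM for 7 days, or the DOT1L inhibitor compound 1 (EPZ004777) at 1 or 5 μM, or compound 2 (Compound 55 in the labels) at 2 or 10 μM. Both compounds were given for 14 days. The control cells were kept in DMSO at 0.1% for 14 days. All groups are 1 cell line, plated in duplicate wells that the labels give as biological replicates, so p-values measure the spread between such wells. No array of a control siRNA was used here, so in every contrast of siRNA-1 the knockdown, the transfection and the difference between 7 and 14 days cannot be told apart.

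Type I interferons bind a receptor at the cell surface whose kinases activate transcription factors in the cytoplasm. A complex that holds STAT2 and IRF9 then enters the nucleus and binds a short DNA element, the interferon-stimulated response element (ISRE), before the start of its target genes. Cytoplasmic RNA sensors such as RIG-I and MDA5, and the DNA sensor cGAS with its partner STING, can start the same programme. The proteins made include RNA-binding IFIT proteins, the OAS enzymes that activate RNase L, the ubiquitin-like modifier ISG15, and GTPases such as MX1 and GBP2. DOT1L, the enzyme that both compounds and the siRNA target, methylates lysine 79 of histone H3, a mark of transcribed genes.

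The probe of DOT1L itself lay near background, with signals of 26.5 and 18.3 with siRNA-1, 14.7 to 45.7 over the 8 compound arrays, and 24.6 and 22.6 in the control, and it was detected on neither siRNA-1 nor control arrays, so it checks no label. Arrays were of similar quality: 34.0% to 36.7% of probes were detected, and replicate arrays correlated at r = 0.991 to 0.994. The 6 markers of mesenchymal breast cancer lines (VIM, CD44, CAV1, AXL, MSN and S100A4) were detected on all 12 arrays. Of the luminal or epithelial markers, ESR1, PGR, FOXA1 and CDH1 were detected on 0 arrays and GATA3 on 2. ERBB3 and EPCAM were detected on all 12, at signals of 38.1 to 67.8 and 80.1 to 184.3. Of the leukocyte markers, PTPRC, CD3D, ITGAM, CLEC4C and TYROBP were detected on 0 arrays. CSF1R, a receptor of macrophages, was brighter with siRNA-1, at 232.4 and 191.8, than on the compound arrays, at 42.4 to 90, and in the control, at 26.8 and 37.6. CD79A, NCAM1 and LILRA4 reached at most 49, 39.8 and 43.6. The part of such cells in the results was not tested beyond these values.

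With siRNA-1, 20 of the 45 tested members were higher than in the control and 0 were lower (limma adjusted p under 0.05 over all probes). Over all genes, 6.00% were called higher and 5.86% lower. At an unadjusted p under 0.05, 27 members were higher and 0 lower. The share of all genes at an unadjusted p was not computed, here or for the later counts of this kind. The median log2 difference was 0.57 over the members and -0.03 over all genes. Both siRNA-1 arrays lay above both control arrays for 32 of the 45 members, against 25.3% of all genes, and below for 5, against 31% of all genes. For 23 members both siRNA-1 arrays also lay above all other 10 arrays, against 11.4% of all genes, and for 1 (IFITM2) below them, against 12.1%. These counts use the centred log2 values. Array signals printed for each gene are bead signals before centring, and overlaps read from them can differ. Of the 45, 1 (OAS1) passed the detection filter through the siRNA-1 arrays alone. In bulk RNA, a change in a few cells and a smaller change in every cell cannot be told apart.

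Fewer members were called with the compounds. Compound 1 at 1 μM and 5 μM had 5 and 5 members higher, and compound 2 at 2 μM and 10 μM had 5 and 3, with 0 lower in each. Among all genes, 3.73% and 2.01% were called higher with compound 1, and 2.80% and 2.91% with compound 2, and in the same order 2.00%, 0.473%, 1.29% and 0.780% were called lower. At an unadjusted p under 0.05, 12 and 20 members were higher with compound 1 and 15 and 14 with compound 2, while 2, 2, 1 and 1 were lower. The percentages above use the adjusted p and are no background for these counts. The members' median log2 differences were 0.17 and 0.34 with compound 1 and 0.20 and 0.23 with compound 2. The medians over all genes were -0.03, -0.05, -0.04 and -0.02 in the same order. Both arrays of the dose lay above both control arrays for 21 and 26 members with compound 1 and 23 and 24 with compound 2, against 25.7%, 20.2%, 22.8% and 24.5% of all genes, and below for 3, 5, 2 and 5, against 30.3%, 30.2%, 30.4% and 29.4%. The 5 treatments share the same 2 control arrays, so their differences are not independent.

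**Figure D1:**
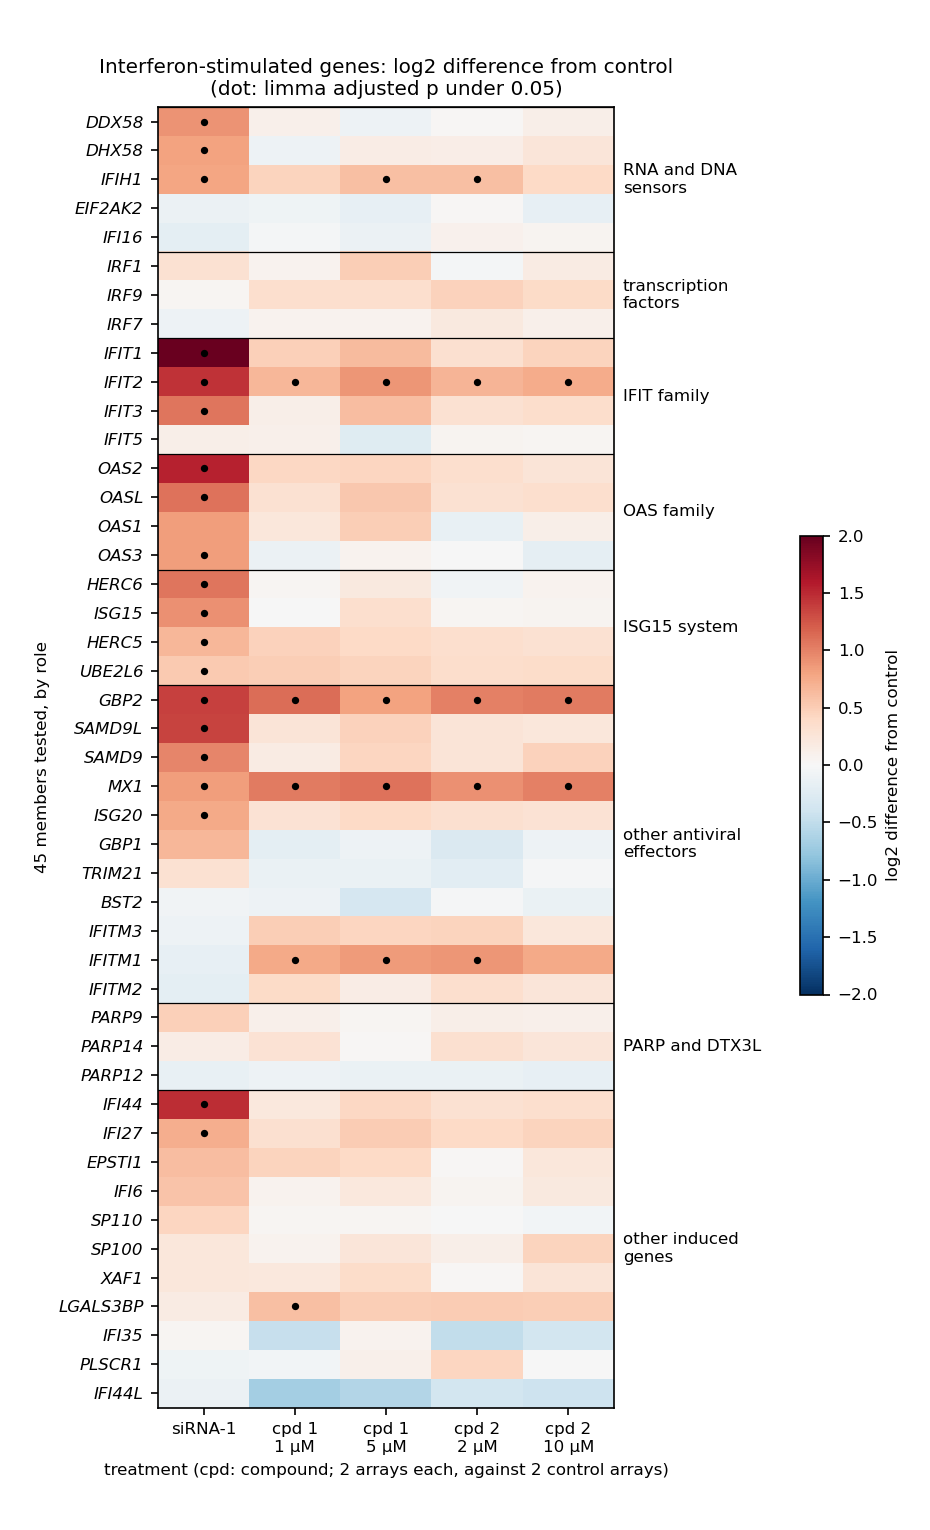
Log2 difference from the control of the 45 tested members (lines, grouped by role and sorted by the siRNA-1 value) in each of the 5 treatments (columns, 2 arrays each against 2 control arrays), with a dot where the limma adjusted p was under 0.05. The siRNA-1 column holds 20 dots and reaches 1.98 in IFIT1, while GBP2, MX1 and IFIT2 carry a dot in all 5 columns and IFITM1 in 3 compound columns only.

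Because many members moved together with siRNA-1, their promoters are shown for the DNA element that gives the programme its name. RefSeq windows on GRCh38.p14, covering 250 bases before to 50 bases after each annotated start, were found for 42 of the 52 members. The core of the ISRE was searched on both strands as the letters TTTC, 2 bases of any kind, and TTTC again. They occurred in 28 of the 42 members (66.7%), against 4.38% of 27,305 genes in the whole table and 3.57% of 35,116 windows. The ISRE share was 11 of 15 among members higher with siRNA-1 and 15 of 23 among tested members not called, so the letters alone did not separate these sets, and this difference was not tested. A match is a description of the letters and not evidence of binding.

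The 150 bases before the first annotated start are printed for 4 members that were higher with siRNA-1 (IFIT1, ISG15, IFI44 and IFIH1) and for 2 that were lower with siRNA-1 than with the compounds (IFITM1 and IFITM3), with whole ISRE matches in capitals, on either strand. They lie at chr10:89392473-89392622 on the plus strand (IFIT1), chr1:1013347-1013496 on the plus strand (ISG15), chr1:78649639-78649788 on the plus strand (IFI44), chr2:162318685-162318834 on the minus strand (IFIH1), chr11:313890-314039 on the plus strand (IFITM1) and chr11:320861-321010 on the minus strand (IFITM3), and each reads 5′ to 3′ along its gene.
IFIT1: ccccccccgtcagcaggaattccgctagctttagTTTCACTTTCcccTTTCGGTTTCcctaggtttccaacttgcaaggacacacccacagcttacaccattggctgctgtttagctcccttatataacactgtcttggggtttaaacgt
ISG15: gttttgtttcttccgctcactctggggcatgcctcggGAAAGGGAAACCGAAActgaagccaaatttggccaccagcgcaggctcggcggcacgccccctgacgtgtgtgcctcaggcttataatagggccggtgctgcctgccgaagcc
IFI44: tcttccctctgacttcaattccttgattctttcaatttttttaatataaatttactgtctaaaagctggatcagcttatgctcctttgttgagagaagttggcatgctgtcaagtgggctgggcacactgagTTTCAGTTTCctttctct
IFIH1: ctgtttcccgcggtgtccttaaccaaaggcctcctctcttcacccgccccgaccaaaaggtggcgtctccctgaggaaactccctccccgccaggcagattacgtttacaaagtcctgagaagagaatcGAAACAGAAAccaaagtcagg
IFITM1: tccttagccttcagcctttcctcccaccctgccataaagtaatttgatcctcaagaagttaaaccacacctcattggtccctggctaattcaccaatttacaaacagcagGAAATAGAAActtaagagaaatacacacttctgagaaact
IFITM3: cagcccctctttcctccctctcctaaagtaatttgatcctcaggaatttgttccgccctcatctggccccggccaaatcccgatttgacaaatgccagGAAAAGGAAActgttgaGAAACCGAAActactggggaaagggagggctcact
IFIT1 has 2 matches, which begin 116 and 103 bases before the start, and ISG15 has 2 that overlap, at 113 and 107 bases. IFI44 has 1, only 18 bases before the start, and IFIH1 has 1 in this stretch at 21 bases. The match of IFITM1 in capitals begins 40 bases before the start; a further one spans the start and is left in lower case. IFITM3 has 2 matches, at 52 and 35 bases. The genes printed were chosen as examples and all carry a match, so they do not compare the 2 sets. DDX58, HERC6, SAMD9L and UBE2L6, also higher with siRNA-1, had windows without a match.

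**Figure D2:**
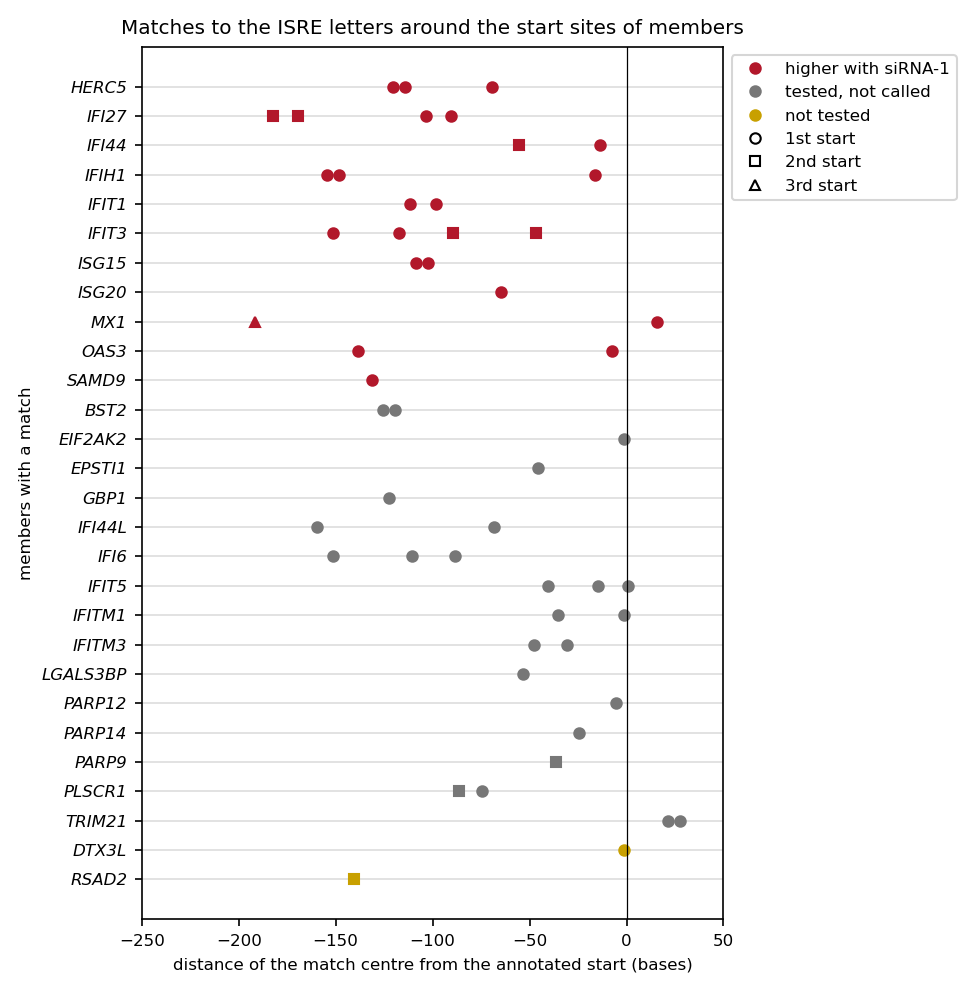
Positions of ISRE letter matches (x axis: distance of the match centre from the annotated start, in bases) in the 28 members with a match (y axis), with circles, squares and triangles for up to 3 annotated starts of a gene, and colours for the siRNA-1 call. Members higher with siRNA-1 (11) and tested members not called (15) both carry matches, most of them before the start.

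The sensors come first in the pathway, and 3 of 5 were higher with siRNA-1. DDX58 (RIGI in current naming), which encodes the RNA sensor RIG-I, had signals of 147.7 and 157.5 with siRNA-1, 100 and 86.1 with compound 1 at 1 μM, 74.2 and 82.9 at 5 μM, 82.6 and 92.9 with compound 2 at 2 μM, 79.3 and 88.7 at 10 μM, and 77.4 and 82.3 in the control. Both siRNA-1 arrays stood above all others, and the 8 compound arrays overlapped the control. The difference with siRNA-1 was 0.89 ± 0.15 (log2 ± SE, n = 2 arrays a group, as in all such values; limma adjusted p = 0.00255), and the 4 compound differences were 0.11 and -0.11 with compound 1 at 1 and 5 μM, and 0.02 and 0.12 with compound 2 at 2 and 10 μM. IFIH1, which encodes the RNA sensor MDA5, had 162 and 158.1 with siRNA-1, 128.5 and 148.4 with compound 1 at 1 μM, 154.9 and 159.6 at 5 μM, 142.6 and 176.7 with compound 2 at 2 μM, 114.4 and 125.1 at 10 μM, and 97.8 and 85.3 in the control. All treated arrays exceeded both control arrays here. IFIH1 was higher by 0.79 ± 0.14 with siRNA-1 (limma adjusted p = 0.00343), and among the compounds it was called with compound 1 at 5 μM (0.61 ± 0.14, adjusted p = 0.0451) and compound 2 at 2 μM (0.61 ± 0.14, adjusted p = 0.0376). Both compound calls were lost without control replicate 2 (0.52 and 0.52) and without either array of their own group.

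DHX58 encodes LGP2, a regulator of the same sensor family, and lay near background, at 62 and 55.9 with siRNA-1, 30.4 and 24.2 with compound 1 at 1 μM, 31.8 and 41.7 at 5 μM, 38.7 and 35.4 with compound 2 at 2 μM, 41.6 and 29.5 at 10 μM, and 24.9 and 29.7 in the control. It was detected on both siRNA-1 arrays and on neither control array, so the ratio has only a bound: at least 1.53-fold higher with siRNA-1, computed as the siRNA-1 mean over the mean of the lowest detected signal of the control arrays, with a limma adjusted p of 0.0242. Without any 1 of the 4 arrays this call was lost. EIF2AK2, which encodes the RNA-activated kinase PKR, and IFI16, a DNA-binding protein, were not called with siRNA-1; EIF2AK2 was at -0.12. IFI16, whose probe had the highest median signal of the sensors, had 911.1 and 937.7 with siRNA-1, 1119.8 and 1191.6 with compound 1 at 1 μM, 1078.7 and 1113.1 at 5 μM, 1051.6 and 1535.6 with compound 2 at 2 μM, 1113.3 and 1105.7 at 10 μM, and 1159.8 and 1072.8 in the control. Its siRNA-1 arrays were the lowest of the 12, but after centring the difference was -0.20, with a 95% interval of -0.47 to 0.07.

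Of the 3 transcription factors tested, limma called 0 in any treatment, and 1 passed at an unadjusted p under 0.05 with siRNA-1, 1 with compound 1 at 5 μM and 1 with compound 2 at 2 μM. Over all genes, limma called 6.00% higher with siRNA-1 and 2.01% to 3.73% with a compound dose. At such shares 0 of 3 does not set these genes apart. IRF1, with the highest median signal of the 3, had 644.1 and 626.7 with siRNA-1, 597.3 and 593.8 with compound 1 at 1 μM, 862.6 and 760.3 at 5 μM, 470.1 and 659.7 with compound 2 at 2 μM, 585.6 and 574.4 at 10 μM, and 593.1 and 482.9 in the control. The siRNA-1 arrays overlapped the compound arrays, and the difference from the control was 0.31 ± 0.13 (interval 0.04 to 0.58). With compound 1 at 5 μM it was 0.50 ± 0.13 (adjusted p = 0.0675), and the other 3 doses gave 0.07, -0.04 and 0.17 for compound 1 at 1 μM and compound 2 at 2 and 10 μM. IRF7, which drives the second wave of interferon genes, and IRF9, a DNA-binding factor that recognises the ISRE, differed by -0.10 and 0.03 with siRNA-1. With the compounds IRF9 gave 0.33 and 0.34 with compound 1 at 1 and 5 μM, and 0.46 and 0.38 with compound 2 at 2 and 10 μM. It was not called. All 8 compound arrays lay above both control arrays only before centring, with a lowest signal of 218.3 against 217.3 in the control. After centring they did not.

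Of the 4 IFIT genes, which encode proteins that bind viral RNA and block its translation, 3 were higher with siRNA-1, and IFIT1 had the largest difference of any member. Its signals were 1381.8 and 1329.4 with siRNA-1, 575.4 and 470.2 with compound 1 at 1 μM, 536 and 645.9 at 5 μM, 410.9 and 545.3 with compound 2 at 2 μM, 468.2 and 460 at 10 μM, and 310.2 and 395.1 in the control. Both siRNA-1 arrays exceeded every other array, and the compound arrays also lay above the control without overlap. IFIT1 was 3.94-fold higher with siRNA-1 (1.98 ± 0.16, limma adjusted p = 2.03e-05), and the compounds gave 0.47 and 0.64 with compound 1 at 1 and 5 μM, and 0.32 and 0.45 with compound 2 at 2 and 10 μM, of which none was called alone. IFIT2 had 894.5 and 931.5 with siRNA-1, 606.2 and 555 with compound 1 at 1 μM, 682.3 and 685.4 at 5 μM, 505.2 and 703.4 with compound 2 at 2 μM, 497.2 and 630.6 at 10 μM, and 328 and 355.8 in the control. The order was siRNA-1 above all compound arrays, and these above both control arrays. It was higher by 1.45 ± 0.13 with siRNA-1 (adjusted p = 4.33e-05) and was called with every compound dose, at 0.66 and 0.88 with compound 1 at 1 and 5 μM, and 0.68 and 0.74 with compound 2 at 2 and 10 μM (limma adjusted p = 0.0215, 0.006, 0.0259 and 0.0165).

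IFIT3 had 781.8 and 618.4 with siRNA-1, 409.6 and 380.7 with compound 1 at 1 μM, 541.8 and 588.7 at 5 μM, 395.9 and 530.5 with compound 2 at 2 μM, 501.5 and 352.4 at 10 μM, and 353.6 and 329 in the control. Both siRNA-1 arrays exceeded the other 10, while compound and control arrays overlapped in these signals before centring. After centring, all compound arrays lay above both control arrays. The difference was 1.07 ± 0.18 with siRNA-1 (limma adjusted p = 0.0027), and all 3 tested probes of the gene were higher there. IFIT5 differed by 0.11 with siRNA-1 and was not called in any treatment; its 95% interval with siRNA-1, -0.21 to 0.44, lies below the values of the other members of the family.

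The OAS enzymes make the short oligoadenylates that activate RNase L, and 3 of 4 were higher with siRNA-1. OAS2 had 698.8 and 728.9 with siRNA-1, 361.2 and 350.9 with compound 1 at 1 μM, 342.6 and 387.2 at 5 μM, 294.3 and 395.9 with compound 2 at 2 μM, 260.8 and 320.9 at 10 μM, and 245 and 252.6 in the control. The siRNA-1 arrays stood alone, and compound arrays lay above the control arrays by a small margin. OAS2 was 2.9-fold higher with siRNA-1 (1.53 ± 0.14, limma adjusted p = 3.91e-05), and all 3 of its tested probes were called. OASL, a relative without the enzyme activity, had 304.9 and 282.3 with siRNA-1, 162.7 and 205.5 with compound 1 at 1 μM, 232.2 and 207.4 at 5 μM, 161 and 215.3 with compound 2 at 2 μM, 184.6 and 154.5 at 10 μM, and 127.5 and 146.7 in the control. No treated array overlapped the control, and siRNA-1 was highest (1.09 ± 0.15, adjusted p = 0.000575). OAS3 was dimmer, with 100.5 and 102 with siRNA-1, 55.1 and 48 with compound 1 at 1 μM, 67.9 and 55.3 at 5 μM, 38.9 and 82.1 with compound 2 at 2 μM, 37.8 and 47.4 at 10 μM, and 47.2 and 59.5 in the control. Both siRNA-1 arrays lay above all others, while the compound arrays overlapped the control (siRNA-1 against the control 0.84 ± 0.15, adjusted p = 0.00421), and the compounds gave -0.12 and 0.08 with compound 1 at 1 and 5 μM, and -0.01 and -0.19 with compound 2 at 2 and 10 μM.

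OAS1 was detected on both siRNA-1 arrays and on neither control array. Its signals of 52.4 and 36.5 with siRNA-1 and 7.9 and 16.2 in the control gave at least 1.22-fold, and the limma adjusted p of 0.0627 did not pass. It was tested because of its siRNA-1 signals alone.

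ISG15 is conjugated to other proteins by UBE2L6 and HERC5, and 4 of 4 tested genes of this system were higher with siRNA-1. ISG15 itself had 3506.2 and 2809.4 with siRNA-1, 1804.3 and 1847.3 with compound 1 at 1 μM, 2285.3 and 2389.7 at 5 μM, 1780.8 and 2050.6 with compound 2 at 2 μM, 1778.2 and 1703.5 at 10 μM, and 1525.2 and 1975.2 in the control. Both siRNA-1 arrays were above the other 10, and the compound arrays overlapped the control. The difference was 0.92 ± 0.17 (limma adjusted p = 0.00453), and it was not called without siRNA-1 replicate 1. HERC5, the ligase, had 1892.7 and 1783.8 with siRNA-1, 1827.3 and 1741.3 with compound 1 at 1 μM, 1632.2 and 1795.6 at 5 μM, 1414.3 and 1932.7 with compound 2 at 2 μM, 1292 and 1625.6 at 10 μM, and 1137.6 and 1294.2 in the control. In these signals before centring the siRNA-1 arrays lay above both control arrays but overlapped those of the compounds. After centring, both siRNA-1 arrays lay above all others. The difference was 0.66 ± 0.15 (limma adjusted p = 0.0143), and the call was lost without control replicate 1 or either siRNA-1 array.

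HERC6, a close relative of HERC5 that serves as the ISG15 ligase in mice, had 305.4 and 284.5 with siRNA-1, 168.6 and 140.3 with compound 1 at 1 μM, 167.9 and 180.2 at 5 μM, 125.5 and 162.7 with compound 2 at 2 μM, 149.7 and 134.7 at 10 μM, and 119.2 and 164.2 in the control. Here siRNA-1 stood apart from all else (1.07 ± 0.16, limma adjusted p = 0.00129), while the compounds gave 0.04 and 0.20 with compound 1 at 1 and 5 μM, and -0.07 and 0.07 with compound 2 at 2 and 10 μM. UBE2L6, the conjugating enzyme, had 1429 and 1416.4 with siRNA-1, 1537.6 and 1544.5 with compound 1 at 1 μM, 1644.4 and 1377.5 at 5 μM, 1242.6 and 1614.2 with compound 2 at 2 μM, 1327.4 and 1230.5 at 10 μM, and 1179.5 and 899.8 in the control. Every treated array lay above both control arrays, and siRNA-1 and compounds overlapped. It was called with siRNA-1 (0.53 ± 0.14, adjusted p = 0.0351), but its other tested probe was not (0.65, limma adjusted p = 0.0728), and the call was lost without control replicate 2 or either siRNA-1 array. USP18, the protease that removes ISG15, was below detection in every group.

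Among other antiviral effectors, 5 of 11 tested genes were higher with siRNA-1. GBP2, a guanylate-binding GTPase best known as a target of interferon gamma, had 1797.3 and 1726.7 with siRNA-1, 1690.9 and 1581 with compound 1 at 1 μM, 1320.5 and 1317.9 at 5 μM, 1307.4 and 1813.9 with compound 2 at 2 μM, 1314.7 and 1531.5 at 10 μM, and 727.8 and 685.1 in the control. Every treated array was above both control arrays by a wide margin, and siRNA-1 and compounds overlapped in these signals before centring. After centring, GBP2 was higher on both siRNA-1 arrays than on all others. It was called in all 5 treatments, at 1.37 ± 0.12 with siRNA-1 (limma adjusted p = 3.62e-05) and 1.11 and 0.80 with compound 1 at 1 and 5 μM, and 1.01 and 1.05 with compound 2 at 2 and 10 μM (adjusted p = 0.00126, 0.0065, 0.00326 and 0.00167). MX1, a GTPase that traps viral nucleocapsids, had 463.5 and 519.7 with siRNA-1, 694.5 and 572.1 with compound 1 at 1 μM, 675.8 and 629 at 5 μM, 490.8 and 698.6 with compound 2 at 2 μM, 514.3 and 612.8 at 10 μM, and 310.1 and 256.5 in the control. All treated arrays again exceeded the control, and here the compound arrays reached higher signals than siRNA-1. The differences were 0.84 ± 0.14 with siRNA-1 (adjusted p = 0.003) and 1.04 and 1.08 with compound 1 at 1 and 5 μM, and 0.92 and 1.01 with compound 2 at 2 and 10 μM (adjusted p = 0.004, 0.00264, 0.00963 and 0.00454).

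SAMD9L and SAMD9, neighbouring genes for related antiviral proteins, were both higher with siRNA-1. SAMD9L had 131.2 and 157.4 with siRNA-1, 67.9 and 66.8 with compound 1 at 1 μM, 86.8 and 74 at 5 μM, 67.9 and 68.7 with compound 2 at 2 μM, 53.2 and 64.3 at 10 μM, and 39.3 and 62.2 in the control. The siRNA-1 arrays were above all others by a wide margin (1.35 ± 0.19, limma adjusted p = 0.000662). SAMD9 had 364.2 and 362.9 with siRNA-1, 266.1 and 188.5 with compound 1 at 1 μM, 257.2 and 288.9 at 5 μM, 206.7 and 284.6 with compound 2 at 2 μM, 237.9 and 264.9 at 10 μM, and 170.5 and 203.4 in the control. Its pattern was alike, with the siRNA-1 arrays above all others (0.98 ± 0.16, adjusted p = 0.00266). ISG20, an exonuclease that degrades RNA, had 1425.7 and 1278.7 with siRNA-1, 1074.4 and 1077.1 with compound 1 at 1 μM, 1296 and 1047.2 at 5 μM, 969.2 and 1302.1 with compound 2 at 2 μM, 1024.3 and 941.3 at 10 μM, and 961.7 and 718 in the control. The siRNA-1 arrays lay above both control arrays (0.76 ± 0.15, adjusted p = 0.00734), and without control replicate 2 or siRNA-1 replicate 1 it was not called.

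The IFITM genes, which encode membrane proteins that hinder virus entry, went another way. IFITM1 had 102.9 and 101.4 with siRNA-1, 202.9 and 259.2 with compound 1 at 1 μM, 258.1 and 240 at 5 μM, 241.5 and 273.5 with compound 2 at 2 μM, 213.8 and 203.6 at 10 μM, and 152.5 and 97.6 in the control. The siRNA-1 arrays fell within the control range, and all 8 compound arrays lay above both control arrays. With siRNA-1 the difference was -0.16 (interval -0.58 to 0.26), and the compounds gave 0.75 and 0.85 with compound 1 at 1 and 5 μM, and 0.89 and 0.76 with compound 2 at 2 and 10 μM; the first 3 of these were called (limma adjusted p = 0.0445, 0.0437 and 0.0336) and compound 2 at 10 μM was not (adjusted p = 0.0552). All 3 calls were lost without control replicate 2, where the differences were 0.46, 0.56 and 0.59, and without either array of their own group. IFITM2, whose probe had the highest median signal in this group (4423.5, with 4389 for IFITM3, and signals of different probes do not rank their RNAs), had 3100.4 and 3337.7 with siRNA-1, 5366.6 and 5308.4 with compound 1 at 1 μM, 4932.1 and 4191.2 at 5 μM, 4880.4 and 5623.6 with compound 2 at 2 μM, 4453.1 and 4393.9 at 10 μM, and 4274.8 and 3501 in the control. Its siRNA-1 arrays were the lowest of the 12, at -0.20 ± 0.14 from the control, which was not called (adjusted p = 0.422). IFITM3 differed by -0.10 with siRNA-1. The 3 genes are close paralogs, and how far their probes share RNA was not tested.

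GBP1 had 244 and 217.1 with siRNA-1 and 128.5 and 167.5 in the control, a difference of 0.67 ± 0.20 that just missed the threshold (limma adjusted p = 0.0542), as did its other probe (0.58, limma adjusted p = 0.0501). TRIM21 and BST2 differed by 0.30 and -0.07 with siRNA-1 and were not called. MX2, RSAD2, CMPK2 and TRIM22 were below detection in every group. Over all genes, 6.00% were called higher with siRNA-1, so a lack of calls among the 3 tested PARP genes says little. The PARP and DTX3L genes gave no call with siRNA-1 by limma (1 higher at an unadjusted p under 0.05): PARP9 was at 0.48 (adjusted p = 0.0556), PARP14 at 0.15 and PARP12 at -0.15, and DTX3L was detected on 1 array alone, of compound 1 at 1 μM, and was not tested. PARP12, with the highest median signal of them, had 536 and 544.7 with siRNA-1, 651.5 and 590.5 with compound 1 at 1 μM, 661.9 and 567.2 at 5 μM, 539.7 and 712.7 with compound 2 at 2 μM, 511.8 and 571.3 at 10 μM, and 668.6 and 595.9 in the control. The siRNA-1 arrays lay within the range of the compound arrays and below both control arrays, and its interval was -0.41 to 0.11.

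Of 11 other induced genes, 2 were higher with siRNA-1. IFI44 had 627.7 and 645.6 with siRNA-1, 292.4 and 280.5 with compound 1 at 1 μM, 332.8 and 334.1 at 5 μM, 262.1 and 373.5 with compound 2 at 2 μM, 284.1 and 285.1 at 10 μM, and 224.9 and 238.4 in the control. Both siRNA-1 arrays exceeded every other array, and the compound arrays lay above both control arrays. It was 2.77-fold higher with siRNA-1 (1.47 ± 0.11, limma adjusted p = 1.39e-05), and the compounds gave 0.21 and 0.41 with compound 1 at 1 and 5 μM, and 0.31 and 0.34 with compound 2 at 2 and 10 μM. IFI27, a mitochondrial protein often used as a marker of interferon exposure, had 1522.2 and 1779.6 with siRNA-1, 1203.4 and 1578.6 with compound 1 at 1 μM, 1671.8 and 1477.9 at 5 μM, 1294.7 and 1698.7 with compound 2 at 2 μM, 1406.9 and 1338.6 at 10 μM, and 1286 and 839.6 in the control. In these signals before centring the siRNA-1 arrays exceeded both control arrays but overlapped those of the compounds. After centring, both siRNA-1 arrays lay above all others. The difference was 0.72 ± 0.19 (limma adjusted p = 0.0365), and the call was lost without control replicate 2 or either siRNA-1 array. IFI44L, the neighbour and paralog of IFI44, did not share this. Its tested probe had 56.7 and 46.5 with siRNA-1, 26.6 and 42.1 with compound 1 at 1 μM, 32.4 and 43.7 at 5 μM, 47.6 and 47.5 with compound 2 at 2 μM, 40.2 and 39 at 10 μM, and 59.8 and 61.7 in the control. The siRNA-1 arrays and all 8 compound arrays lay below both control arrays, at -0.12 with siRNA-1 and -0.68 and -0.59 with compound 1 at 1 and 5 μM, and -0.37 and -0.41 with compound 2 at 2 and 10 μM. The mean of the compounds was -0.51 ± 0.16, the lowest of any member (limma adjusted p = 0.0595), which was called lower in 3 of the fits that left out 1 compound array. A dimmer probe of the gene had 39.2 and 16.4 with siRNA-1 and 1.2 and -3.8 in the control and was too dim to test.

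LGALS3BP, a secreted glycoprotein, had 557.9 and 635.2 with siRNA-1, 932.1 and 856.2 with compound 1 at 1 μM, 869.7 and 801.3 at 5 μM, 792.8 and 925.4 with compound 2 at 2 μM, 733 and 783 at 10 μM, and 601.9 and 509.1 in the control. All 8 compound arrays were above both control arrays and both siRNA-1 arrays. It was called with compound 1 at 1 μM only (0.59 ± 0.14, limma adjusted p = 0.0325); leaving out control replicate 2 (0.47) or either array of its group ended the call. With siRNA-1 it was at 0.17. IFI6 was at 0.57 with siRNA-1 (adjusted p = 0.0519), but its other probe had the opposite sign (-0.12), the only such case among 8 members with more than 1 tested probe. EPSTI1, SP110, SP100, XAF1, IFI35 and PLSCR1 ranged from -0.09 to 0.61 with siRNA-1 and were not called.

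**Figure D3:**
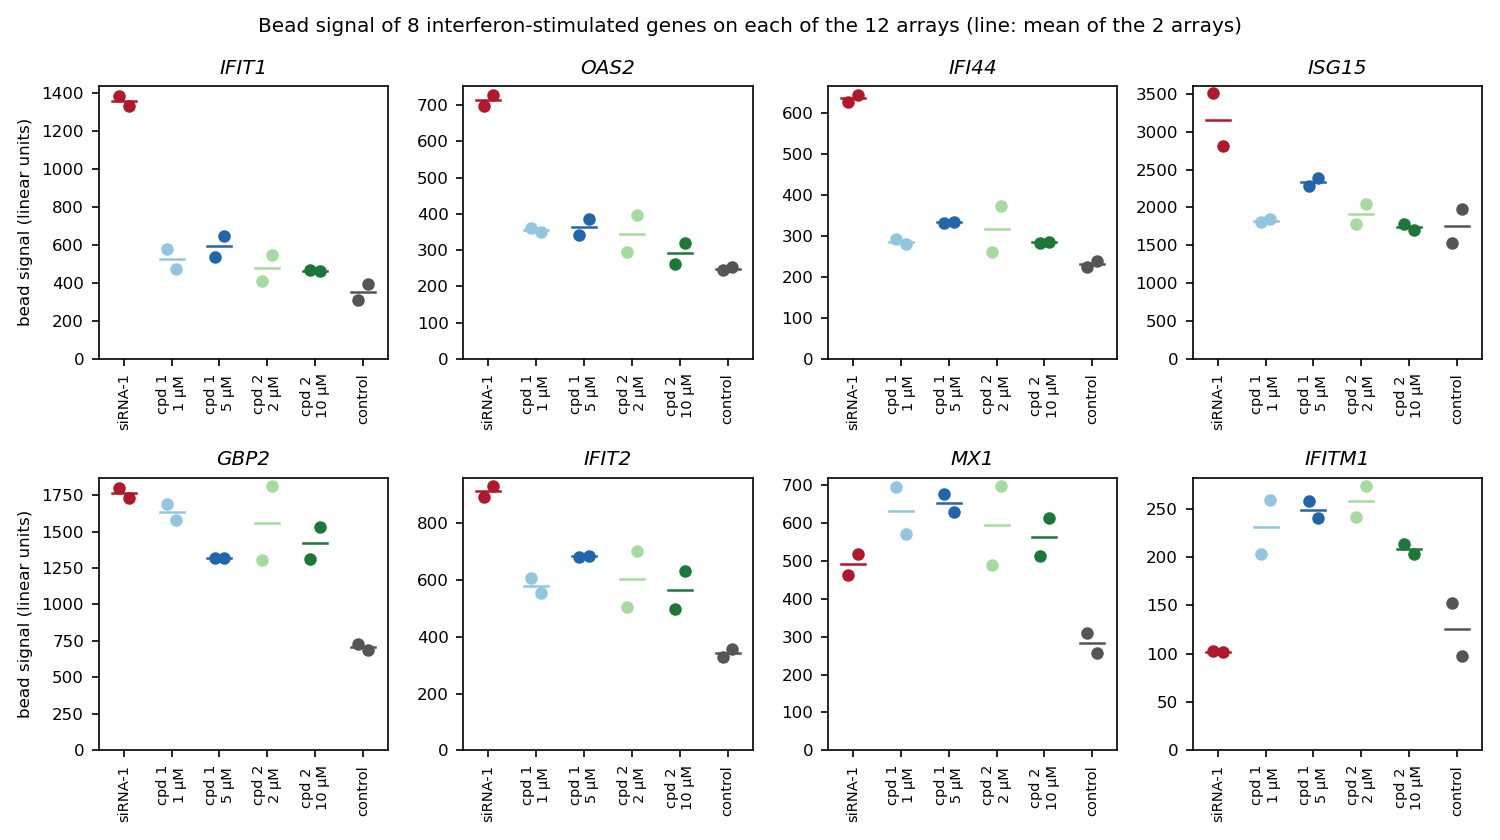
Bead signal (y axis, linear units from 0) of 8 members on each of the 12 arrays, by treatment (x axis; cpd, compound), with points for arrays and lines for the mean of 2. In the upper 4 (IFIT1, OAS2, IFI44, ISG15) the siRNA-1 arrays stand above the other 10; in GBP2, IFIT2 and MX1 every treated array exceeds the control; in IFITM1 the compound arrays do (202.9 to 273.5) and the siRNA-1 arrays (102.9 and 101.4) do not.

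In all, 22 members were called in at least 1 treatment: 20 with siRNA-1, and IFITM1 and LGALS3BP with a compound only. Of the 6 called with at least 1 compound dose (GBP2, MX1, IFIT2, IFIH1, IFITM1 and LGALS3BP), the first 3 were called at every dose and the first 4 also with siRNA-1. These calls changed without control replicate 2: GBP2 stayed called at all but compound 1 at 5 μM, and MX1 and IFIT2 at compound 1 at 5 μM alone, and each dose kept 1 or 2 members. Leaving out 1 array of the compound group also ended the call of GBP2 at 1 dose, of MX1 at 3 and of IFIT2 at 4. Averaging the 4 compound groups gave a more precise contrast with the control, in which 10 members were higher and 0 lower, against 6.73% of genes called higher and 5.44% lower; at an unadjusted p under 0.05 these were 20 and 2. The 10 were MX1 (1.01), GBP2 (0.99), IFITM1 (0.81), IFIT2 (0.74), LGALS3BP (0.52), IFIH1 (0.51), IFIT1 (0.47), UBE2L6 (0.41), IFITM3 (0.40) and IFI44 (0.32), all as log2 differences. Without control replicate 2, which leaves 1 control array, most of these calls were lost, and calls over all genes fell as well. The members' median log2 difference in that fit was 0.21, against 0.22 with all arrays. On the centred scale all 8 compound arrays lay above both control arrays for 14 members, against 11.3% of all genes, and below for 1 (IFI44L), against 14.6%.

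The difference between siRNA-1 and the mean of the 4 compound groups was tested directly. Here 21 members were higher with siRNA-1 and 4 were lower, against 10.9% and 11.8% of all genes, with medians of 0.36 over the members and 0.01 over all genes. IFIT1 led at 1.51 ± 0.13 (limma adjusted p = 1.98e-05), followed by OAS2 (1.17 ± 0.11), IFI44 (1.15 ± 0.09), SAMD9L (1.05 ± 0.15) and HERC6 (1.01 ± 0.13). The 21 held 3 of 4 IFIT genes and the OAS genes. Of these OAS1 (adjusted p = 0.0393), which entered the test through its siRNA-1 signals alone, lost its call without either siRNA-1 array, without any 1 of 4 compound arrays and in a fit to the compared groups. The 21 include 15 of the 20 members higher than the control and 6 others (GBP1, OAS1, IFI6, SP110, PARP9 and IFI35). The 5 members higher than the control but not called against the compounds were MX1, IFIH1, HERC5, IFI27 and UBE2L6. For MX1 the difference was -0.17 (95% interval -0.42 to 0.07) and for UBE2L6 0.11 (-0.13 to 0.36), so differences of these sizes remain possible.

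The 4 members lower with siRNA-1 than with the compounds were IFITM1 (-0.97 ± 0.15, limma adjusted p = 0.0011), IFITM3 (-0.50 ± 0.11, adjusted p = 0.00935), IFITM2 (-0.47 ± 0.11, adjusted p = 0.0105) and LGALS3BP (-0.35 ± 0.11, adjusted p = 0.0393). The whole IFITM family present in the list thus stood on the opposite side from the OAS and IFIT families in this contrast. Without either siRNA-1 array IFITM1 was the only member still called lower, and leaving out any 1 of the 10 siRNA-1 and compound arrays, except compound 2 at 2 μM replicate 2, ended the call of LGALS3BP. The number of members called higher was 11 without siRNA-1 replicate 1.

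**Figure D4:**
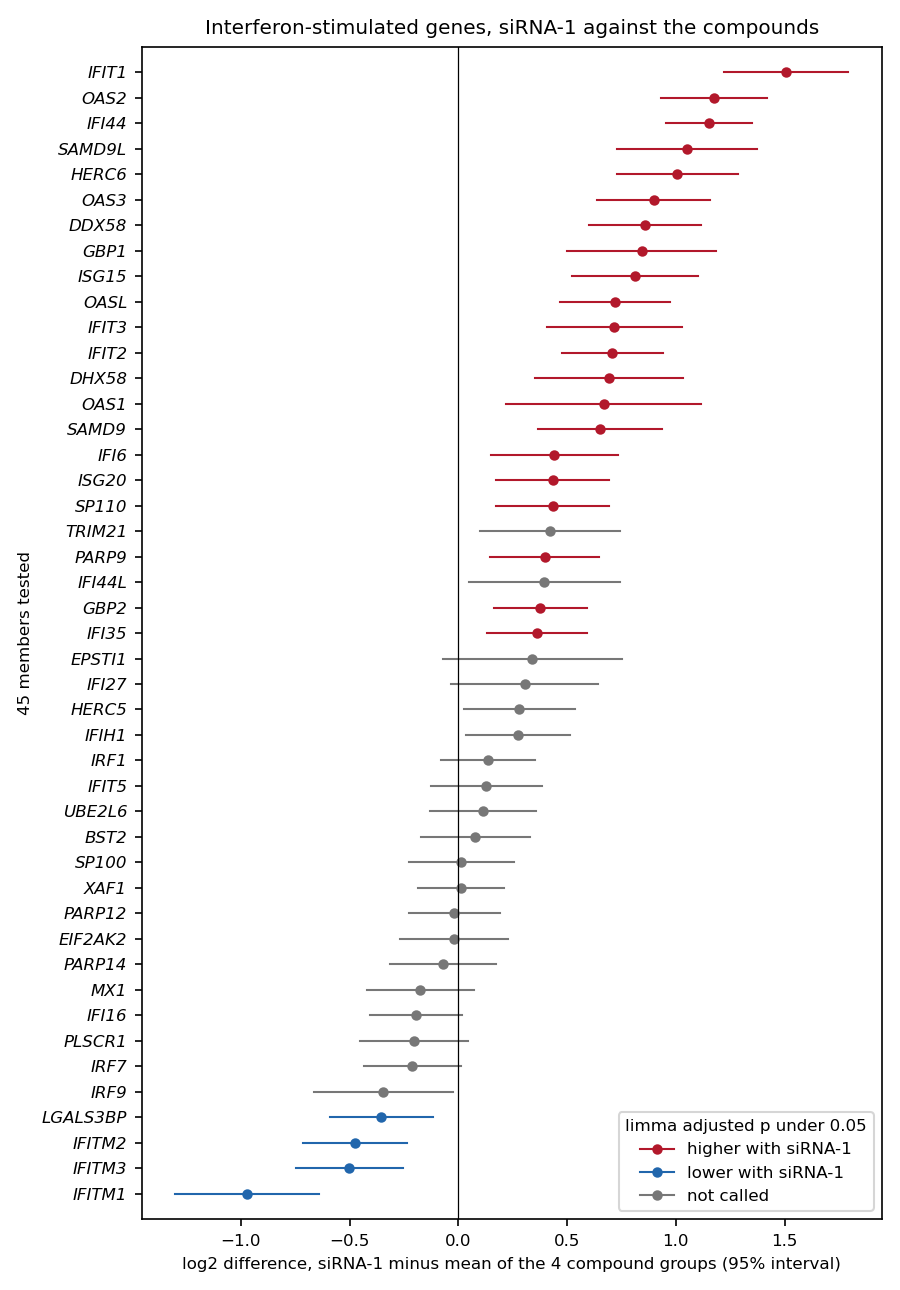
Log2 difference of siRNA-1 minus the mean of the 4 compound groups (x axis) for the 45 tested members (y axis), with 95% intervals of the limma fit and colours for the call at an adjusted p under 0.05. At the top 21 members are called higher with siRNA-1, led by IFIT1 at 1.51, and at the bottom 4 are called lower, ending with IFITM1 at -0.97.

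Raising the dose gave no called change in any member. Between 5 and 1 μM of compound 1, limma called 0 members and 0 of all genes, and at an unadjusted p under 0.05 there were 3 members higher and 2 lower at 5 μM. Between 10 and 2 μM of compound 2 there were 0 calls among members and genes, and 1 higher and 1 lower at an unadjusted p under 0.05. GBP2 differed by -0.31 between 5 and 1 μM (95% interval -0.58 to -0.04) and by 0.04 between 10 and 2 μM (-0.23 to 0.31); MX1 differed by 0.04 (-0.27 to 0.36) and 0.10 (-0.22 to 0.41). A p that misses the threshold does not show that the doses act alike, as the width of these intervals shows. The 2 compounds were given at different doses, so their values are set side by side and no difference between them was tested.

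Of the other genes of the pathway, 57 in number, 26 were tested. With siRNA-1, 4 were higher and 0 lower by limma, against 6.00% and 5.86% of all genes. At an unadjusted p under 0.05 these counts were 8 and 2. SOCS1, among those higher in both counts, passed the detection filter through the siRNA-1 arrays alone, so its place there is no support. Of 21 interferon genes, 18 were not detected on any array with any probe, and only IFNW1 was tested, at signals of 36 and 19.7 with siRNA-1 and 54.8 and 27.7 in the control. IFNB1 read -5.1 and 1.6 with siRNA-1 and -11.0 and -18.6 in the control, which is background. The 5 receptor genes tested differed by 0.23 to 0.40 with siRNA-1 and none was called (3 higher at an unadjusted p under 0.05); with compound 1 at 1 μM, IFNGR1, a chain of the interferon gamma receptor, was higher by 0.50 (limma adjusted p = 0.042), and in the mean of the compounds IFNGR1 (0.38) and IFNGR2 (0.46), its other chain, were. JAK1 and TYK2, the receptor kinases, differed by -0.18 and 0.09 with siRNA-1 and were not called.

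Among sensors and their partners, AIM2, a cytoplasmic DNA sensor, had 227.2 and 196.3 with siRNA-1, 164.2 and 124.1 with compound 1 at 1 μM, 202.7 and 169.7 at 5 μM, 155.6 and 179.2 with compound 2 at 2 μM, 152.3 and 149.2 at 10 μM, and 95.2 and 94.6 in the control. Every treated array exceeded the control, with 1.11 ± 0.15 for siRNA-1 (limma adjusted p = 0.000573) and 0.44 and 0.78 with compound 1 at 1 and 5 μM, and 0.63 and 0.65 with compound 2 at 2 and 10 μM, of which the last 3 were called. MAVS, the adaptor of RIG-I and MDA5, had 102.6 and 105.3 with siRNA-1, 55.9 and 58.1 with compound 1 at 1 μM, 66.5 and 70.2 at 5 μM, 58.1 and 65.3 with compound 2 at 2 μM, 44.9 and 31.7 at 10 μM, and 62.7 and 69.8 in the control. Only siRNA-1 stood above the control (0.62 ± 0.16, adjusted p = 0.0284). STING1 and CGAS, the DNA-sensing pair, moved in opposite directions with the compounds. STING1 had 182 and 222.2 with siRNA-1, 329.6 and 411.3 with compound 1 at 1 μM, 453.5 and 375.3 at 5 μM, 315.7 and 422.3 with compound 2 at 2 μM, 333.3 and 340.8 at 10 μM, and 249.2 and 165.9 in the control. The compound arrays were above the control and the siRNA-1 arrays overlapped it; the mean compound difference was 0.76 ± 0.14 (adjusted p = 0.0089), and siRNA-1 minus the compounds was -0.71 (adjusted p = 0.00533). CGAS had 113.8 and 116.6 with siRNA-1, 57.1 and 65 with compound 1 at 1 μM, 72 and 56.6 at 5 μM, 65.3 and 62 with compound 2 at 2 μM, 57.3 and 56 at 10 μM, and 89.6 and 133.8 in the control. The compound arrays were below the control, at -0.76 ± 0.15 on average (adjusted p = 0.0113), and siRNA-1 was 0.89 above the compounds (adjusted p = 0.00184).

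SOCS1, a feedback inhibitor of JAK kinases, was detected on both siRNA-1 arrays (37.7 and 47.2) and on no other array, where signals were at most 17.5. Having entered the test through its siRNA-1 signals alone, it was at least 1.19-fold higher with siRNA-1 than in the control (limma adjusted p = 0.00166). CCL5, an interferon-induced chemokine, was higher by 0.45 ± 0.13 with siRNA-1 (adjusted p = 0.0473), at 82.2 and 96.8 with siRNA-1 and 63.2 and 66.8 in the control, and by 0.35 in the mean of the compounds (adjusted p = 0.047).

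Of 43 other interferon response genes, 33 were tested, and 5 were higher and 3 lower with siRNA-1, against 6.00% and 5.86% of all genes, or 9 and 7 at an unadjusted p under 0.05. Against the mean of the compounds, 7 were higher and 6 lower with siRNA-1, with a median of -0.03, against 10.9% and 11.8% of all genes. TNFSF10, which encodes the death ligand TRAIL, had 183.6 and 217.8 with siRNA-1, 107.3 and 105.2 with compound 1 at 1 μM, 136.8 and 124.3 at 5 μM, 81.4 and 139.5 with compound 2 at 2 μM, 133.7 and 107.3 at 10 μM, and 42.7 and 19.7 in the control. All treated arrays were above the control and siRNA-1 was highest, at 2.26 ± 0.19 (limma adjusted p = 2.03e-05), with 1.28 and 1.54 with compound 1 at 1 and 5 μM, and 1.27 and 1.57 with compound 2 at 2 and 10 μM, all called. The lowest detected signals of control replicates 1 and 2 were 38.5 and 31.7. The TNFSF10 signal of replicate 2 was thus below detection and that of replicate 1 near it, so the sizes of these differences are uncertain. GBP4 was higher by 1.23, PSMB9, an immunoproteasome subunit, by 0.74, RNF213 by 0.62 and PML by 0.62 with siRNA-1. The 3 that fell with siRNA-1 were CASP4, an inflammatory caspase (-1.57 ± 0.12), WARS1, the tryptophanyl-tRNA synthetase (-1.29 ± 0.13), and LAMP3 (-1.62 ± 0.24). CASP4 had 393.9 and 347.2 with siRNA-1, 1102 and 1111.1 with compound 1 at 1 μM, 1244.3 and 1079 at 5 μM, 959.7 and 1213.9 with compound 2 at 2 μM, 1003.7 and 1104.2 at 10 μM, and 1176.2 and 1183.9 in the control. Both siRNA-1 arrays lay far below the other 10, which overlapped each other. With the compounds, GBP4 was called at 3 doses, and SHFL, an inhibitor of ribosomal frameshifting, and XRN1, an exonuclease, at 2 each. Of these 33 genes, 4 and 2 were higher by limma with compound 1 at 1 and 5 μM. With compound 2 at 2 and 10 μM, 2 and 3 were. Over all genes, 3.73%, 2.01%, 2.80% and 2.91% were higher in this order. At each dose 0 of the 33 were called lower, against 2.00%, 0.473%, 1.29% and 0.780% of all genes, so 0 is near these shares. At an unadjusted p under 0.05, 1 to 4 were lower.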

How the data were processed

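RNA of MDA-MB-231 cells was hybridised to 12 Illumina HT-12 v4 arrays, 2 for each of 6 groups. The authors deposited intensity values exported from BeadStudio (version not given in the sources used here), with background subtracted and no normalization. The detection p-values deposited beside them were computed by the authors' software against negative control beads. Within a line of the table they did not belong to the signal beside them (rank correlations of -0.0041 to 0.0029), so p-values were assigned by rank within each array. After 2 damaged lines were dropped, 47,322 probes remained. The authors' log2 values in the series matrix were made by raising signals under 1 to 1, taking log2 and subtracting each array's median; they served as an alternative. In that matrix the columns of compound 2 at 10 μM are exchanged within their group.

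Signals were corrected with normexp in limma 3.58.1 (R 4.3.3, offset 16, with background parameters estimated through the detection p-values) and put on the log2 scale, and each array was centred by 11,807 probes detected at p under 0.01 on all 12 arrays. The test used 17,910 probes (10,773 genes) that had a detection p under 0.05 on the 2 arrays of some group. Group means came from a single limma fit of the 12 arrays, with 6 residual degrees of freedom and 5.59 from the prior, and Benjamini-Hochberg adjustment ran over all probes of a comparison. Differences are on the log2(corrected signal) scale, which understates changes of dim probes. The lowest detected signal was 26.4 to 38.5 per array, and the median 95% interval reached 0.34 log2 to either side. The number of arrays limits the precision.

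Members and gene lists were chosen with earlier results of these data known. Members called in a treatment were named, with all array values for those called with siRNA-1 or with all compound groups and for the brightest of each role; genes of other lists were named where called in a single treatment against the control, and others were counted. Members that missed the threshold are also named, for their values only. Promoter windows came from RefSeq. Calculations used Python 3.11.15, pandas 2.3.3 and matplotlib 3.10.9, and the limma test was tried on simulated data.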

Additional observations from a re-analysis of the deposited data

How the results depend on the processing

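For the 22 members called in at least 1 treatment against the control, no called difference reversed under any alternative. Members called only in the contrasts that use the mean of the compounds, such as IFITM3 and GBP1, were not checked for this. Signs of uncalled differences did change, with 33 of 45 members above 0 for compound 1 at 1 μM and 41 when centred on all probes. Of the 20 members higher with siRNA-1 than in the control, 14 kept their call whichever 1 of the 4 arrays was left out, and 6 kept it under every alternative (GBP2, IFI44, IFIT1, IFIT2, OAS2 and OASL). Leaving out each array in turn gave 15 to 18 members higher with siRNA-1 against the control and 0 lower, 1 to 7 higher for compound 1 at 1 μM (0 to 1 lower), 1 to 9 at 5 μM (0 lower), 1 to 10 for compound 2 at 2 μM (0 to 1 lower), 1 to 7 at 10 μM (0 lower), 3 to 11 for the mean of the compounds (0 to 1 lower), and 11 to 22 higher and 1 to 4 lower for siRNA-1 against the compounds. Both dose contrasts stayed at 0. The lowest compound counts mostly came without control replicate 2 and the highest without control replicate 1. Calls over all genes with the compounds also fell in the first of these fits and rose in the second.

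The authors' log2 values without a detection filter gave 6 members higher with siRNA-1, 0 for each compound dose, 2 for their mean, and 6 higher and 1 lower for siRNA-1 against the compounds. Calls over all genes, in either direction, fell too. They went from 11.9% to 1.7% with siRNA-1, from 12.2% to 0.649% for the mean, and from 22.7% to 2.56% for siRNA-1 against the compounds. For compound 1 at 1 and 5 μM they fell from 5.73% and 2.49% to 0.249% and 0.304%. For compound 2 at 2 and 10 μM they fell from 4.09% and 3.69% to 0.21% and 0.384%. On the same probes as the main test the authors' values gave 20 with siRNA-1, and 2, 3, 2 and 6 for compound 1 at 1 μM, at 5 μM, compound 2 at 2 μM and the mean, with 2 lower for siRNA-1 against the compounds. Of all genes, 8.79% were called with siRNA-1, then 3.22%, 1.4%, 1.49% and 6.13% in that order, and 16% against the compounds. Signals below 1 set to 1 gave 3 for compound 1 at 1 μM, 3 at 5 μM and 3 for compound 2 at 2 μM, with 3.11%, 1.64% and 1.78% of all genes called. An offset of 50 gave 8 higher and 1 lower for compound 1 at 1 μM, 1 lower for compound 2 at 2 μM and 5 higher at 10 μM. The shares of all genes called were 7.92%, 6.06% and 6.08%. Centring on all probes, which shifted the median of all genes by 0.12, 0.11 and 0.12 for compound 1 at 1 and 5 μM and compound 2 at 2 μM, gave 9 and 11 for compound 1, 5 for compound 2 at 10 μM and 17 for the mean. Here 7.24%, 4.2%, 4.22% and 11.6% of all genes were called. A fit to the compared groups only gave 2, 1, 1 and 6 for compound 1 at 1 μM, at 5 μM, compound 2 at 2 μM and the mean. Of all genes, it called 1.69%, 0.473%, 0.408% and 9.51%. Probes detected on all 12 arrays gave 5 higher for compound 2 at 10 μM and 1 lower each for compound 1 at 1 μM, compound 2 at 2 μM and the mean. In this order 6.39%, 9.15%, 7.22% and 17.6% of all genes were called. Without a filter the mean gave 6, with 5.08% of all genes called. The cause of these changes was not tested.

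The deviations of arrays with the same replicate number correlated at -0.38 to 0.21 over 15 pairs of groups, above 0.1 in 2, so the numbers do not pair the samples. A replicate block gave 3 members higher for compound 1 at 5 μM and 20 with siRNA-1, with 1.99% and 10.7% of all genes called. In bulk arrays, signal over background limits OAS1, DHX58 and the interferon genes themselves.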
